A study of Mus musculus with 113 samples.

Results

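Prl3b1 encodes placental lactogen II, a hormone of the prolactin family. It is described here across mouse preimplantation embryos in which nuclear receptor transcription factors were knocked down or the Nr5a2 gene was targeted by a base editor. Prl3b1 is 1 of 24006 genes in the expression tables, and it was chosen by its measured fall in earlier results of the knockdowns in these embryos, so its own differences are given as descriptions without a test. The other 25 gene symbols made of Prl and a digit serve as the background of its family, and those could be tested.

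All embryos came from zygotes of superovulated mice whose genotype is labelled wild type. The methods give C57BL/6N females and PWK/PhJ males as the parents. The zygotes were injected, grown to the 2-cell (2C), 4-cell (4C) or 8-cell (8C) stage and sequenced by Smart-seq2, a full-length RNA-seq protocol for few cells. The methods describe several siRNAs per gene, and siRNA against a gene here means that set. In the quadruple knockdown (4KD), siRNAs against Nr5a2, Rarg, Nr1h3 and Nr2c2 were injected together at 5 µM for each gene. The control was 20 µM negative control siRNA (NC), and 4C and 8C embryos were collected. In the triple knockdowns (3KD) the set against 1 gene was left out, with 15 µM NC as control. In the single knockdowns the set against 1 gene was used, with 5 µM NC as control, both at 8C. At 2C, Nr5a2 siRNA at 20 µM was set against 20 µM NC. Each of these 16 groups held 2 libraries, made from pools of 5 to 10 embryos. In the other experiment, single 2C or 8C embryos carried base editor mRNA with Nr5a2 sgRNA (BE sg, 14 embryos per stage), base editor mRNA alone (BE, 8 per stage) or the sgRNA alone (sg, 8 per stage), each RNA at 100 ng/µl. The editor turns C into T and the guide was placed to write a stop codon into Nr5a2. The labels do not give the editing outcome of each library, so BE sg is used here as the labelled group. Expression is given as FPKM, fragments scaled to transcript length and library size, as the authors computed it.

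Placental lactogens bind the prolactin receptor, which signals through the kinase JAK2 and STAT5 proteins. In rodents the prolactin family has grown by gene duplication into a cluster of hormones made mainly by trophoblast and decidua, and placental lactogen II is known as a product of trophoblast giant cells that replaces placental lactogen I in the second part of pregnancy. NR5A2, also called LRH-1, is a nuclear receptor that binds DNA as a monomer, at the motif AGGTCA with a short extension on the 5′ side. RARG is a retinoic acid receptor, NR1H3 is the oxysterol receptor LXR alpha and NR2C2 is the orphan receptor TR4.

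On the mm9 build used by the authors, Prl3b1 lies on the forward strand at chr13:27334299-27341548, with 5 exons, a transcript of 875 bases and coding sequence from 27334358 to 27341398. No other annotated gene overlaps it. Its nearest annotated neighbours are Prl3a1, 9.8 kb away, and Prl3c1, 38.7 kb away. Of the 826 stretches of 50 bases in its transcript, 0 occur in a transcript of another gene among 55443 transcripts searched, and the longest run shared with a family member is 18 bases, with Prl6a1. The reads of Prl3b1 can therefore be told apart from those of its relatives at this length.

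The 250 bases upstream of Prl3b1 are shown because they hold a match to the NR5A2 type of site (RefSeq promoter table, GRCm38.p6, chr13:27242180-27242429, forward strand; the same letters occur once on mm9 chromosome 13 and end 1 base before the annotated start).
Prl3b1 promoter: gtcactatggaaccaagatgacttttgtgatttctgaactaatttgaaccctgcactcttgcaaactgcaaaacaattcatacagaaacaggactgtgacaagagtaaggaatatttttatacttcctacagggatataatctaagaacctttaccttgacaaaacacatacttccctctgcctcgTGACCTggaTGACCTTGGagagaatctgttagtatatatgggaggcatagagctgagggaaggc
Capitals mark 2 copies, both read as AGGTCA on the opposite strand. Counted from the annotated start, the first lies at -64 to -59. The second, at -55 to -47, reads CCAAGGTCA on the opposite strand. Searched on both strands, CCAAGGTCA was found in 0.463% of the 32851 upstream windows of 250 bases in the table, CAAGGTCA in 1.33%, AAGGTCA in 4.08% and AGGTCA in 14%, each shorter motif being contained in the longer ones. Other spellings of the site were not searched. Of the 24 windows of Prl genes, which stand for 21 symbols, CCAAGGTCA and CAAGGTCA were each found in 1, that of Prl3b1. AGGTCA was found in 6, those of Prl2b1, Prl3b1, Prl3c1, Prl3d1, Prl3d2 and Prl3d3. AAGGTCA was found in 3 and is shown for these, read along the strand that holds it and with the 7 letters in capitals, since the members differ around it.
Prl2b1: ccctaacagagAAGGTCAtaggatcatca
Prl3b1: agattctctccAAGGTCAtccaggtcacg
Prl3c1: attctagcctgAAGGTCAgaagcttggga
The match lay at -101 to -95 in Prl2b1 and at -22 to -16 in Prl3c1, on the strand of the gene in both. Prl2b1 and Prl3c1 were listed at 0 in all 92 libraries. These matches describe letters and were not tested as binding sites.

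The 92 libraries differed in depth and content. The FPKM sum per library ran from 83392 to 556462, genes at an FPKM of at least 1 from 5472 to 11921, and no pair of libraries was identical (largest r 0.982). Depth in reads is unknown, and relative depth, estimated from the smallest values, ran from 0.368 to 1.52 of the median library. In 3 single-embryo libraries (2C sg embryo 8 and 8C BE sg embryos 13 and 14) the column name in the file gives the 4-cell stage and not the labelled one, and the single-embryo differences of Prl3b1 are given with and without them. 8C BE sg embryo 8 had the lowest FPKM sum of all libraries. As embryo markers, Pou5f1 had a median FPKM of 137 at 8C and Tead4, a trophectoderm factor, 55.6. Among markers of cells around the embryo, the cumulus genes Ptx3, Inhba and Fshr and the placental genes Tpbpa, Synb, Ctsq, Ctsm, Ctsj, Cts7 and Cts8 were listed at 0 in all 54 8C libraries, and Hba-a1, a globin gene of red blood cells, had a median FPKM of 15.1 there. Hba-a1 was the only one of the 3 genes in the blood list with a median of at least 1 FPKM at any stage. Of the others, Ptprc was listed at 0 in all libraries and Hbb-b1 in all 2C and 4C libraries.

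The siRNA targets were checked first. In the single knockdowns at 8C, Nr5a2 was at 11.2 FPKM against 49.5 in NC (log2 difference -2.06, limma adjusted p = 0.0115) and Nr2c2 at 0.700 against 9.99 (-2.67, adjusted p = 0.0359). Rarg was at 4.56 against 30.5 (-2.52, adjusted p = 0.116) and Nr1h3 at 0.394 against 10.7 (-3.06, adjusted p = 0.157), neither past the threshold of 0.05 over all genes. Rarg was also at 12.6 FPKM with Nr1h3 siRNA and at 19.0 with Nr2c2 siRNA, against the same 30.5, and passed in neither. The Nr5a2 call was lost without NC pool 1 (-2.04) or NC pool 2 (-2.08), and the Nr2c2 call without any 1 of its 4 pools (-2.96 to -2.38). The Nr2c2 call was also lost with median-ratio scaling (-2.45), quantile normalization (-2.43) or no filter on low values (-2.67), whereas Rarg passed with median-ratio scaling (-2.39) and quantile normalization (-2.43). In the quadruple, triple and 2C knockdowns no siRNA target passed adjusted p under 0.05 by limma. Nr5a2 gave -1.65 in 4KD at 4C (adjusted p = 0.809), -2.25 in 4KD at 8C (adjusted p = 0.380) and -2.14 at 2C (adjusted p = 0.890). In the triple mixes that held its siRNA it gave -2.77 to -2.18 (adjusted p from 0.134 to 0.263). Rarg also overlapped its NC pools in the triple knockdowns, since these differed widely, at 2.18 and 17.6 FPKM, and its fall was not established. Rarg stood at 2.61 to 3.6 in the mix that spared Nr5a2 (-0.92, adjusted p = 1), at a mean of 2.08 in the one that spared Nr1h3 (-1.34, adjusted p = 0.852) and at 2.36 in the one that spared Nr2c2 (-1.19, adjusted p = 0.871). In the 10 8C pools that received Nr5a2 siRNA, alone or in a mix, Nr5a2 lay between 3.90 and 12.8 FPKM, and in the 14 that did not it lay between 27.1 and 50.2. In the edited embryos Nr5a2 mRNA was at 52.1 FPKM in 8C BE sg against 46.2 in the BE and sg controls (0.21, SE 0.247, adjusted p = 0.831).

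Prl3b1 was listed at 0 in most 2C embryos and was expressed at 4C and 8C, at its highest in 8C pools that had not received Nr5a2 siRNA. Over all 92 libraries it was above 0 in 61 and at or above an FPKM of 1 in 58. At 2C it was above 0 in 5 of 34 libraries. These were BE embryos 2 and 6 at 1.23 and 0.622 FPKM and sg embryos 4, 7 and 8 at 2.36, 2.77 and 16.1, of which the last is the embryo with a 4-cell column name. The 4 pooled 2C libraries and the 14 2C BE sg embryos were all listed at 0. At 4C, the NC pools stood at 48.3 and 47.3 FPKM. The 6 8C NC pools ran from 51.0 to 276 FPKM with a median of 98.0, and the 16 single control embryos at 8C ran from 4.43 to 99 with a median of 28.7. In the 8C 3NR NC pools (the controls of the triple knockdowns), 496 of 24006 genes, Prl3b1 included, had a mean level at or above that of Prl3b1.

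**Figure D1:**
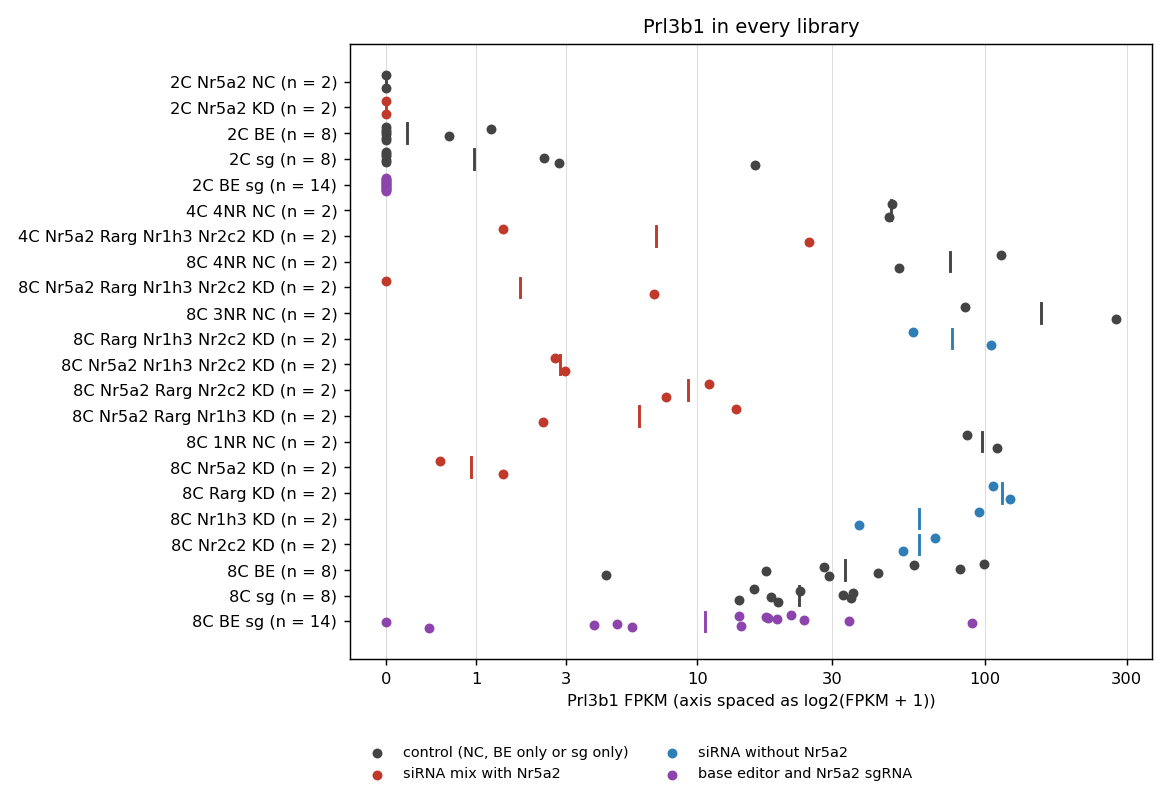
Prl3b1 FPKM on the x axis (spaced as log2(FPKM + 1)) in each of 92 libraries, by group on the y axis, with 1 point per library and a vertical bar at the group's mean on the log2 scale. The 8C pools that received Nr5a2 siRNA sit between 0 and 13.8, and the 8C pools without it between 37.2 and 276.

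Ordered by mean log2(FPKM + 1), the 22 groups formed a nearly continuous series, led by 8C 3NR NC and 8C Rarg KD. Neighbours in this order differed by more than the larger SD of the pair at 1 place, between 8C Nr5a2 KD (mean log2 value 0.95) and 2C BE (0.23), a gap of 0.71 against an SD of 0.50.

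The quadruple knockdown asked what the 4 receptors together contribute at 4C and 8C. At 4C, Prl3b1 was at 1.46 and 25.1 FPKM in the 4KD pools against 48.3 and 47.3 in NC. Both 4KD pools lay below both NC pools, but they differed widely from each other, and Nr5a2 was at 3.98 FPKM in the pool with the lower Prl3b1 level and at 17.6 in the other. The log2 difference was -2.61 (SE 1.15), or 3.6-fold lower on mean FPKM, and without 1 or the other 4KD pool it was -0.90 or -4.31. At 8C the 4KD pools stood at 0 and 6.87 FPKM against 113 and 51.0 in NC, without overlap, and the log2 difference was -4.78 (SE 1.15), 23.9-fold lower on mean FPKM. Groups of 2 that do not overlap in this direction were common, with 15.3% of 10476 genes at 4C and 19.2% at 8C, so the lack of overlap alone says little of Prl3b1. At 8C, 2 genes had a larger fall, named here because their values were seen to be larger, 1500009L16Rik (36.4 FPKM in NC, listed at 0 in 4KD) and the small nucleolar RNA gene Snora78 (3228 against 911). At 4C, 24 genes had a larger fall.

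The triple knockdowns asked which receptor mattered, by leaving 1 of the siRNAs out, and they share the same 2 NC pools, at 85.7 and 276 FPKM. In the mix that lacked Nr5a2 siRNA, Prl3b1 stood at 57.0 and 104 FPKM, a range that overlaps NC (log2 difference -0.99, SE 0.733), although each pool was below the NC pool of the same number. In the mix that spared Rarg it stood at 2.68 and 2.97 FPKM (-5.34, SE 0.733, 64.1-fold lower). In the mix that spared Nr1h3 it stood at 11 and 7.65 (-3.92, 19.3-fold lower), and in the mix that spared Nr2c2 at 13.8 and 2.34 (-4.46, 22.4-fold lower). None of these 6 pools reached the lower NC pool, nor the lower pool of the mix without Nr5a2 siRNA. The median gene had a log2 difference of 0.11 to 0.13 in the 4 comparisons. Non-overlap downward was found for 12.5%, 12.2% and 12.3% of 10626 genes in these 3 comparisons. In the mix that spared Rarg, 2 genes had a larger fall, Khdc3 (124 against 0.924 FPKM), a maternal-effect gene of the subcortical maternal complex, and Snora78, and in the mix that spared Nr2c2 they were Khdc3 and S100a3 (88.9 against 1.31). These genes, too, were chosen after their values were seen.

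The single knockdowns tested each receptor alone at 8C. With Nr5a2 siRNA, Prl3b1 was at 0.510 and 1.46 FPKM against 86.6 and 109 in NC. The log2 difference of -5.67 (SE 0.462), 99.6-fold lower on mean FPKM, was the second largest fall among 10163 genes tested, after Khdc3 (292 against 2.41 FPKM), and the number of genes at or above Prl3b1's mean level, itself included, rose from 905 to 8452. With Rarg siRNA the pools stood at 107 and 121 FPKM, within and above the NC range (0.22, SE 0.462). Nr1h3 siRNA gave 95.3 and 37.2 FPKM, which overlaps NC (-0.70, SE 0.462), and Nr2c2 siRNA gave 67.9 and 52.6, both below NC (-0.69, SE 0.462). Groups did not overlap downward for 33.1% of genes in the Nr5a2 knockdown and 33.9% in the Nr2c2 knockdown, and the median gene had a log2 difference of -0.22 and -0.24 there. With libraries rescaled by median ratio, which moves these medians to near 0, the values for Prl3b1 were -5.38 with Nr5a2 siRNA and -0.38 with Nr2c2 siRNA.

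Across all 8C pools, the 10 libraries with Nr5a2 siRNA had 0 to 13.8 FPKM of Prl3b1 (median 2.82) and the 14 without it 37.2 to 276 (median 90.9), with no overlap. Of 11290 genes with a mean of at least 1 FPKM in one of these groups, 0.895% were lower with Nr5a2 siRNA without overlap, and Prl3b1 is 1 of these 101 genes, as a gene that was chosen by its fall in these pools. The blood list, led by the globin gene Hba-a1, separated the same pools in the other direction, with summed levels of 27.9 to 185 FPKM in the 10 pools with Nr5a2 siRNA and 7.26 to 24.5 in the 14 without. Its part in the Prl3b1 difference was not tested. At 4C its sums overlapped, with 10.7 to 113 in NC and 32.8 to 67.3 in 4KD. The single Nr5a2 knockdown pools were below each of the 6 triple knockdown pools that carried the same siRNA, which ran from 2.34 to 13.8 FPKM. At 2C, where the NC pools were already listed at 0, the Nr5a2 knockdown could not show a fall, and Prl3b1 was not among the 11958 genes tested. In bulk pools, fewer cells that make a transcript and less RNA per cell cannot be told apart.

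**Figure D2:**
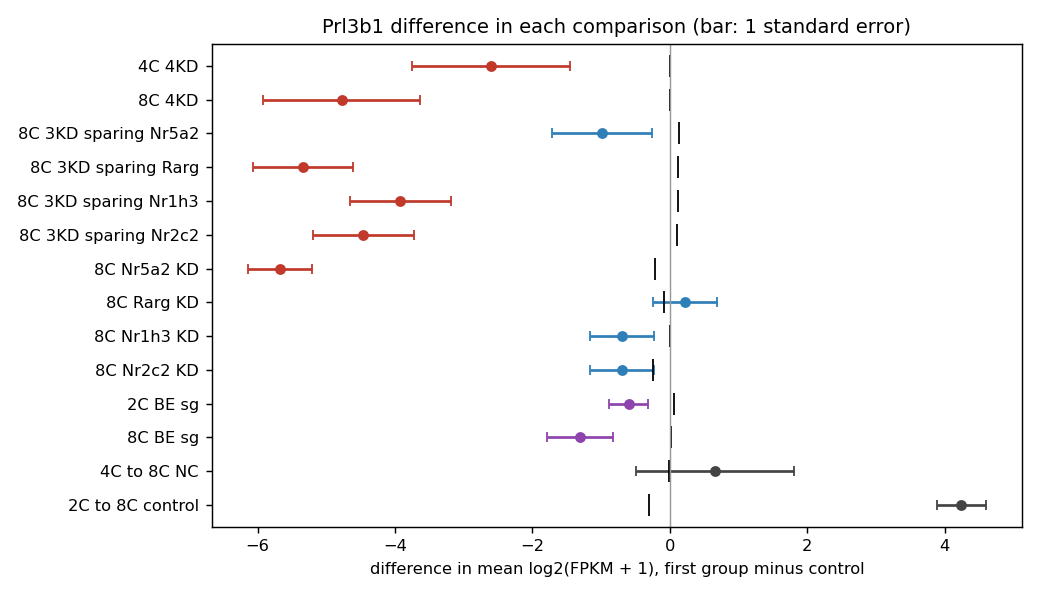
Difference in the mean log2(FPKM + 1) of Prl3b1 between the first group and its control (x axis) for 14 comparisons (y axis), with 1 limma standard error as the bar and a black tick at the median difference of all genes tested. The 6 comparisons that include Nr5a2 siRNA (red) lie between -5.67 and -2.61 and those with other siRNAs (blue) between -0.99 and 0.22.

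The edited embryos gave a smaller and less even difference. At 8C, the 14 BE sg embryos ran from 0 to 90.1 FPKM of Prl3b1 with a median of 16.0, against 4.43 to 99 with a median of 36.3 in the 8 BE embryos and 14.2 to 35.4 with a median of 21.4 in the 8 sg embryos. The 3 groups overlapped. Of the 14 BE sg embryos, 12 lay below the median of the 16 controls and 3 lay below the lowest control. These 3 were embryo 8 at 0, the library with the lowest FPKM sum, embryo 11 at 3.93 FPKM and embryo 14 at 0.386 FPKM, which carries a 4-cell column name. The log2 difference was -1.30 (SE 0.483). Without the 2 libraries with a 4-cell column name it was -0.98 and without the library of lowest sum -1.03. Column names give 2 editor names, eBE and BE4. Within embryos of the eBE series of library numbers the difference was -0.19, with medians of 23.5 (BE), 28.1 (sg) and 18.7 (BE sg), and within the BE4 series it was -1.77, with medians of 69.9, 18.9 and 9.63. Against BE embryos of the same editor name only, it was 0.05 for eBE and -2.53 for BE4. All eBE values here leave out BE sg embryos 13 and 14, at 5.63 and 0.386 FPKM. Their column names give eBE and the 4-cell stage. The difference was larger in the BE4 series. The split by library numbers was chosen after seeing the data, and whether the series differ was not tested. At 2C, where 5 of 16 controls and 0 of 14 BE sg embryos were above 0, the log2 difference was -0.60 (SE 0.282). Without sg embryo 8, which carries a 4-cell column name, Prl3b1 fell under the filter on low values, and with that filter left off the difference was -0.38.

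Nr5a2 and Prl3b1 levels were set side by side. Over the 28 pooled 4C and 8C libraries the libraries form 2 clusters, so no pooled relation is read from them. Within the 12 pools with Nr5a2 siRNA, r was 0.41 and rho 0.26, and r was 0.29 without the 2 libraries farthest in Nr5a2. Within the 16 pools without it, r was 0.12 and rho 0.19, and 0.05 without the farthest 2. Among the 16 single 8C controls r was 0.36 and rho 0.40, and 0.30 without the farthest 2, and among the 14 BE sg embryos r was -0.06 and rho -0.18, and -0.33 without them. These are descriptions over libraries of 1 experiment each or of several, and within each cluster the mRNA levels of the 2 genes were at most weakly related. The sg embryo 7 at 8C had 7.98 FPKM of Nr5a2, in the range of the siRNA pools, and 14.2 FPKM of Prl3b1, the lowest value of its group. Its FPKM sum of 207918 was the lowest of the 16 controls. The control with the lowest Prl3b1 level, BE embryo 7 at 4.43 FPKM, had 51.5 FPKM of Nr5a2.

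**Figure D3:**
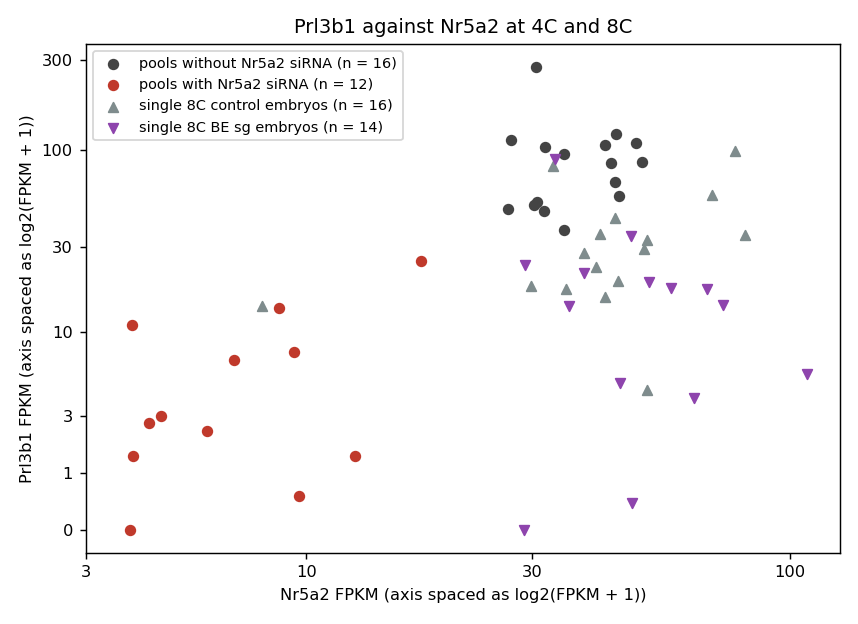
Prl3b1 FPKM (y axis) against Nr5a2 FPKM (x axis), both spaced as log2(FPKM + 1), with 1 point per 4C or 8C library. Pools with Nr5a2 siRNA (12) have Nr5a2 at 3.90 to 17.6 and Prl3b1 at 0 to 25.1. Pools without it (16) have Nr5a2 at 26.8 to 50.2 and Prl3b1 at 37.2 to 276. The single BE sg embryos have Nr5a2 mRNA at 28.8 to 108, a level that does not measure editing, and Prl3b1 at 0 to 90.1.

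The stage comparison described when Prl3b1 came on. Between the 16 single controls at 2C and the 16 at 8C, the mean FPKM rose from 1.44 to 34.7, 24.1-fold, a log2 difference of 4.24 (SE 0.357), and 4.46 without the 2C embryo with a 4-cell column name. Over all genes, 29.2% were higher at 8C and 43.4% lower (limma, adjusted p under 0.05, 12824 genes tested). In the NC pools from 4C to 8C the values were 48.3 and 47.3 against 113 and 51.0 FPKM, a log2 difference of 0.66 (SE 1.15), and non-overlap upward was found for 16.2% of genes. The level at 4C was thus already of the order of that at 8C, whereas Nr5a2, which rose from 23.4 to 46.2 FPKM between the 2C and 8C controls (1.36, adjusted p = 0.00108), was present at 2C, when Prl3b1 was mostly at 0.

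The prolactin family as a whole was nearly silent. Of the other 25 symbols, 11 were listed at 0 in all 92 libraries, among them the placental lactogen I genes Prl3d1, Prl3d2 and Prl3d3, and 6 were above 0 but never reached an FPKM of 1. The remaining 8 reached 1 FPKM at least once. Prl3b1 was the highest of the family in 47 of the 58 libraries at 4C and 8C. At 2C the highest was Prl8a2, in 31 of 34 libraries. Prl8a2, decidual prolactin-related protein, was above 0 in 33 of 34 2C libraries, with a median of 24.0 and a highest value of 105 FPKM, and was listed at 0 in all 28 pools at 4C and 8C and in all 16 single 8C controls. It is thus the reverse of Prl3b1 in stage, and its fall from 23.4 FPKM at 2C to 0 at 8C passed the test (log2 difference -4.19, SE 0.359, limma adjusted p = 2.6e-12). Prl8a2 passed the filter on low values only through the 2C embryos, so the test could call only a fall and adds nothing on its direction. The 2C embryo without Prl8a2 was sg embryo 8, the one with the 4-cell column name and with 16.1 FPKM of Prl3b1. At 8C, the 3 libraries with Prl8a2 above 0 were BE sg embryos 12, 13 and 14, at 0.863 to 1.83 FPKM.

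Prl7b1 was, after Prl3b1, the member above 0 in most 8C libraries, 40 of 54. There its median was 1.76 and its highest value 18.7 FPKM. It rose from 0.416 FPKM in the 2C controls to 2.05 in the 8C controls (0.87, SE 0.307, limma adjusted p = 0.0122). Prl7b1 passed the filter on low values there only through the 8C embryos, so only a rise could be called. In the 8C Nr5a2 knockdown Prl7b1 stood at 1.04 and 2.23 FPKM against 0 and 2.1 in NC (log2 difference 0.54, SE 0.672, adjusted p = 0.729). It stood highest in the triple knockdown that spared Nr1h3, at 6.09 and 18.7 FPKM against 0 and 7.19 in NC (2.04, adjusted p = 0.729). In the 8C BE sg embryos it had a mean of 4.83 FPKM against 2.05 in the controls (0.88, adjusted p = 0.441). Prl8a9 reached at most 2.98 FPKM and was above 0 in 21 of 54 8C libraries, and the others reached their highest values at 2C, Prl2c5 at 12, Prl4a1 at 4.73, Prl7c1 at 4.56, Prl2a1 at 2.73 and Prl6a1 at 2.05 FPKM. Prl4a1 was at 1.29 and 4.73 FPKM in the 2C Nr5a2 knockdown pools and at 0 in NC (1.86, adjusted p = 0.890).

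None of the other Prl symbols tested, 1 to 3 per comparison, passed adjusted p under 0.05 in a knockdown or editing comparison by limma. At an unadjusted p under 0.05 there were 2, Prl4a1 in the 2C Nr5a2 knockdown and Prl7b1 in 8C BE sg. Over all genes the share past adjusted p under 0.05 was itself small. It was 0% in both 4KD comparisons, where 610 genes at 4C and 784 at 8C had an unadjusted p under 0.05, 0% in the mixes that spared Nr5a2 (251 genes unadjusted) and Nr2c2 (783), and 0% from 4C to 8C in NC (776). It was 0.0565% in the mix that spared Rarg, 0.00941% in the mix that spared Nr1h3, 0.00984% with Rarg siRNA and with Nr1h3 siRNA, 0.0787% with Nr2c2 siRNA, 0.0167% with Nr5a2 siRNA at 2C, 0.164% in 8C BE sg and 0.00805% in 2C BE sg. The Nr5a2 knockdown at 8C stood apart, with 2.75% of 10163 genes past it, 2.39% lower and 0.354% higher.

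**Figure D4:**
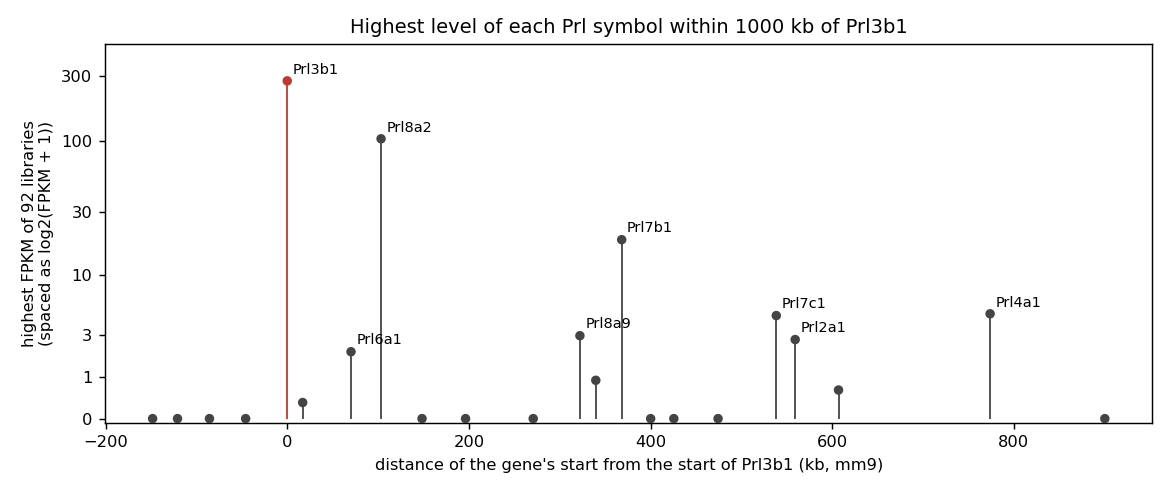
Highest FPKM in 92 libraries (y axis, spaced as log2(FPKM + 1)) of each of the 22 Prl symbols within 1 Mb of Prl3b1, against the distance of the gene's start from that of Prl3b1 in kb (x axis). Prl3b1 (red) reaches 276, Prl8a2 at 103.3 kb reaches 105 and Prl7b1 at 368.2 kb reaches 18.7, and the symbols between them stay under 3.

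On the mm9 annotation 25 of the 26 symbols were placed on chromosome 13, of which 22 lie within 1 Mb of Prl3b1 and Prl2c2, Prl2c3 and Prl2c5 lie farther away, outside the span plotted. The genes next to Prl3b1 on both sides stayed low, with Prl3c1 listed at 0 in all libraries and Prl3a1 at 0.308 FPKM at most.

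Prlr and Jak2 were lower at the stage where Prl3b1 was higher. Prlr, the prolactin receptor, had a median of 33.2 FPKM in the 2C controls (6.62 to 64.9) and at most 2.11 FPKM in the 8C controls (mean 31.2 against 0.281, log2 difference -4.53, SE 0.254, adjusted p = 1.44e-16). Prlr passed the filter on low values only through the 2C embryos, so only a fall could be called. The 4C pools had 0 to 2.02 FPKM of Prlr. Jak2, the kinase bound to the receptor, fell with it, from 62.1 to 1.33 FPKM (-4.89, adjusted p = 1.44e-16). Of the list of 38 genes of the prolactin receptor and JAK-STAT pathway, 31 were tested, of which 17 were lower and 8 higher at 8C, with a median of -0.78 against -0.31 for all genes, a split not far from that of all genes tested, of which 43.4% were lower and 29.2% higher. The feedback inhibitors of the pathway moved both ways, with Socs1 falling from 27.4 to 2.35 FPKM and Socs6 from 24.8 to 3.17, and Cish rising from 1.52 to 13.4 (2.53, adjusted p = 1.06e-09). Myc, a growth gene induced by many such signals, rose from 3.46 to 26.3. In the 8C Nr5a2 knockdown, 0 of 27 tested members passed adjusted p under 0.05 by limma, against 2.75% of all genes in either direction, and 3 had an unadjusted p under 0.05. Prl3b1 was thus at its highest at a stage where mRNA of its receptor was near 0.

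**Figure D5:**
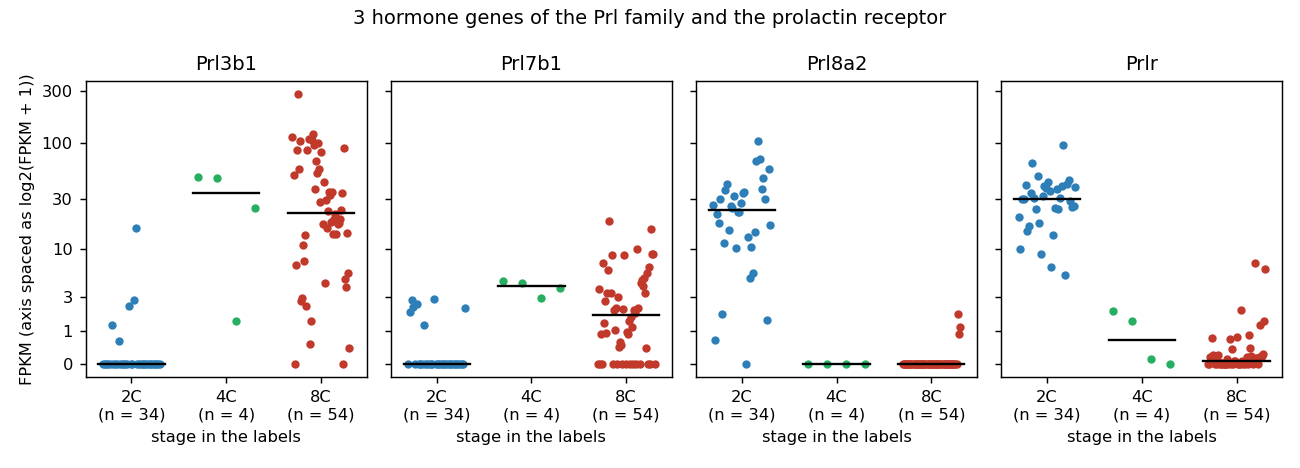
FPKM (y axis, spaced as log2(FPKM + 1)) of Prl3b1, Prl7b1, Prl8a2 and Prlr in every library, by the stage in the labels (x axis), with 1 point per library, knockdown and edited embryos included, and a line at the median. At 4C and 8C Prl8a2 is at most 1.83 and Prlr at most 7.28, and Prl3b1 is at 0 in 29 of 34 2C libraries and above 0 in 52 of 54 8C libraries.

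Genes of the tissues in which Prl3b1 is best known were counted next, from lists that were chosen with earlier results known, beside the same 43.4% of genes lower and 29.2% higher at 8C. Of 18 trophectoderm genes, 17 were tested between the stages, and 8 were higher and 3 lower at 8C (median 0.76 against -0.31 for all genes). Tead4 rose from 6.30 to 61.4 FPKM (3.66), whereas Gata2 (-2.49) and Id2 (-3.59) fell. Gata2 passed the filter on low values only through the 2C embryos, so only its fall could be called. Hand1, a factor needed for trophoblast giant cells and a member of the trophoblast list as well, rose from 10.4 to 32.1 (2.38). Of 23 genes of later trophoblast subtypes, 12 were tested, 6 were lower and 3 higher, with Plac8 falling from 54.5 to 1.72 FPKM (-4.11). Of 27 steroidogenic and placental hormone genes, 8 were tested, and 3 fell and 0 rose. These were Plac8, the pregnancy-specific glycoprotein Psg17 (4.56 to 0.00806 FPKM) and Nr5a1, the close relative of Nr5a2 (1.21 to 0). Psg17 and Nr5a1 passed the filter on low values only through the 2C embryos, so for these genes only a fall could be called. The Nr5a1 mean at 2C rests largely on BE embryo 5 at 12.5 FPKM, the median of the 16 controls being 0.265, and its call was lost with quantile normalization (-0.44). With 8 to 12 genes tested, the shares of the trophoblast and steroidogenic lists are near those of all genes.

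In the 8C Nr5a2 knockdown, 2 of 13 tested trophectoderm genes were lower and 0 higher, with a median log2 difference of -0.90 against -0.22 for all genes, of which 2.39% were lower. Hand1 was at 4.35 and 14.7 FPKM against 75.1 and 77.9 in NC (-3.08, adjusted p = 0.00904) and Fgfr2, a fibroblast growth factor receptor, at 2.93 against 13.4 (-1.85, adjusted p = 0.0414). Of 10 tested trophoblast subtype genes 1, Hand1, fell there, and Alpl, alkaline phosphatase, the only decidua gene tested, fell from 15.4 to 1.16 FPKM (-2.94, adjusted p = 0.0385). In the mix that spared Rarg, where 0.0565% of all genes passed the test, 1 of 12 trophoblast genes, Rhox9, fell from 22.3 FPKM to 0 (-4.51, adjusted p = 0.0341). The Alpl, Fgfr2 and Rhox9 calls were lost without any 1 of their 4 libraries, at -3.17 to -2.72, -2.18 to -1.52 and -4.81 to -4.21. The Hand1 call was lost without knockdown pool 2 (-2.31) and without NC pool 1 (-3.06) or 2 (-3.11). In the triple knockdowns, where Hand1 did not pass the test, its mean was 26.6 FPKM in the mix without Nr5a2 siRNA and 9.86, 8.82 and 16.6 in those that spared Rarg, Nr1h3 and Nr2c2, against 48.5 in NC.

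Summed levels of some marker lists did not overlap between the NC and Nr5a2 knockdown pools at 8C. Over all genes tested there, 33.1% did not overlap downward and 12.9% upward, so lack of overlap alone says little of these lists. The trophectoderm list summed to 294 and 311 FPKM in NC and to 157 and 170 in the knockdown. Hand1 belongs to this list and to the trophoblast list, so both sums include its fall. The trophoblast list summed to 157 and 173 FPKM in NC and to 53.0 and 85.7 in the knockdown, and the decidua list, in which only Alpl has a median over 1 FPKM at 8C, to 15.7 and 16.9 against 2.04 and 3.20. The cumulus list summed to 10.5 and 11.7 against 6.73 and 13.4, which overlap. The steroidogenic list (9.03 and 15.5 against 5.12 and 17.1) and the prolactin receptor list (467 and 490 against 258.5 and 523) overlapped as well. A list of early embryo genes, which includes Pou5f1, summed to 195 and 237 in NC and to 138 and 188 in the knockdown. The blood list, led by Hba-a1, summed to 9.78 and 18.1 in NC and to 31.6 and 79.6 in the knockdown, the opposite direction to Prl3b1. Their part in the Prl3b1 difference was not tested.

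The genes whose levels ran most like Prl3b1 were named by Pearson's r on log2(FPKM + 1), as a description. Over the means of the 22 groups, with 9179 other genes, these were Atg4b (0.96), an autophagy protease, S100a3 (0.96), Vpreb3 (0.95), the lens crystallin gene Crygs (0.95) and Tdgf1 (0.95), the Nodal co-receptor Cripto, where 99% of genes had r under 0.87. Mki67 (-0.94), the proliferation marker, and Dusp16 (-0.92), a phosphatase of MAP kinases, ran most opposite. The points share stages and controls. Nr5a2 itself had r = 0.67 there.

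Over the 28 pooled 4C and 8C libraries, with 7326 other genes, the most alike were Creg1 (0.93), Atg4b (0.91), the chloride channel Clcn2 (0.91), the tetraspanin Cd9 (0.91) and the proteasome activator Psme1 (0.90), and the most opposite were Nlrp6 (-0.89) and the spectrin Sptan1 (-0.82). Creg1 lay at 2.04 to 10.6 FPKM in the 12 pools with Nr5a2 siRNA and at 20.2 to 53.2 in the 16 without. Atg4b lay at 13.7 to 44.6 against 67.7 to 177, and Psme1 at 0 to 24.9 against 66.1 to 140. Nlrp6 lay at 0.841 to 11.2 against 0 to 0.782. Clcn2 and Sptan1 overlapped between the pools with and without it. These genes were chosen by r over the same 2 clusters of pools. Nr5a2 ranked 16th of 7326 with r = 0.88, an order that the 2 clusters set, while Nr1h3 (0.20), Nr2c2 (0.28) and Rarg (0.04) were far from the top.

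Over the 30 single 8C embryos, with 6194 other genes and a median r of 0.27, the list was a different one, with the DNA repair gene Parp1 (0.81), Nfil3 (0.81), the cadherin Cdh1 (0.78), Gm20337 (0.77) and Rpl31-ps12 (0.75) at the top and Rp9 (-0.66) and Pxt1 (-0.63) at the bottom. Without the library of lowest FPKM sum, which lies at 0 for Prl3b1, the 5 values were 0.74, 0.76, 0.73, 0.70 and 0.65. Nr5a2 had r = 0.04 over these embryos.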

How the data were processed

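Smart-seq2 libraries of mouse embryos were analysed from the FPKM values that the authors deposited, 1 table per sample. The authors aligned reads with TopHat and computed FPKM with Cufflinks 2.2.1 on mm9. The submitters' processing notes also name TopHat2 2.0.11 and HISAT2 2.1.0. The tables hold no counts, so depth is unknown and no counting interval is given; relative depth was estimated from ratios of values under 0.5 FPKM between libraries. Of 113 samples, 21 without an FPKM table were not analysed here. Samples were grouped by their labels. Nothing in the labels says that replicates came from separate matings, so the error may be technical. Differences were computed on log2(FPKM + 1), which understates changes of low genes, for genes whose mean reached 1 FPKM in any group of the fit, with limma 3.58.1 (R 4.3.3; trend, Benjamini-Hochberg adjustment over all genes tested, two-sided). The 2C, 4KD, 3KD and single knockdown experiments and the single embryos of each stage were fitted separately, and the fit was tested on simulated data. The BE and sg groups served jointly as controls of BE sg. SE is that of limma. Named genes were Prl3b1, Prl symbols that reach 1 FPKM, the siRNA targets, at most 5 members per list and comparison past adjusted p under 0.05, markers listed at 0, and the 5 highest and 2 lowest r per set of points. Prl3b1 and the lists were chosen with earlier results of these data known. Alternatives were other pseudocounts, filters and scalings, a replicate block, leaving out libraries, and control or editor subsets.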

Additional observations from a re-analysis of the deposited data

Results flagged for a closer look

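Among groups of 8 single embryos, 5 genes (Prl3b1, Prl7b1, Prl8a2, Prl8a9 and Nr5a2) gave 16 pairs of gene and group that were checked for a library far from the others. In 7 of them the gap of the extreme library exceeded Dixon's 95% critical value, where chance gives about 1 in 20 pairs, and in groups with many values at 0 any expressed library is set apart. Prl3b1 (16.1 FPKM) and Nr5a2 (70.6 FPKM) both stood apart in 2C sg embryo 8, whose column name gives the 4-cell stage and in which Prl8a2 was listed at 0. Prl7b1 stood apart at 2.88 FPKM in 2C sg embryo 4, at 8.63 in 8C BE embryo 2 and at 9.89 in 8C sg embryo 6. Prl8a9 stood apart at 0.544 FPKM in 2C BE embryo 1 and at 2.98 in 8C BE embryo 2.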

How the results depend on the processing

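Over 14 Prl3b1 differences and 79 settings besides leaving out 1 library, 68 values moved by less than 1 SD and 11 by more. Of these values, 1 changed sign (8C BE sg within eBE names, without the embryos with a 4-cell column name, 0.05). With a pseudocount of 0.1 the 8C 4KD difference was -6.51, Nr5a2 KD -6.64, 2C BE sg -1.46 and the 2C to 8C difference 6.64, and with 10 the values were -2.74 for 8C 4KD, -3.69 for the mix sparing Rarg, -3.29 for Nr5a2 KD and 1.83 from 2C to 8C. Rescaling gave -0.38 (median ratio) and -0.40 (quantile) for Nr2c2 KD and 0.42 (quantile) for Rarg KD. Leaving out 1 library of 4 kept the sign in 44 of 44 settings, with -4.31 to -0.90 for 4C 4KD, -6.27 to -3.29 for 8C 4KD, 0.09 to 1.23 from 4C to 8C, -1.82 to -0.15, -6.18 to -4.50, -4.76 to -3.09 and -5.54 to -3.39 for the mixes sparing Nr5a2, Rarg, Nr1h3 and Nr2c2, -6.03 to -5.32 for Nr5a2 KD, 0.06 to 0.39 for Rarg KD, -1.36 to -0.03 for Nr1h3 KD and -0.87 to -0.51 for Nr2c2 KD.

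Of 112 list counts, 102 stayed within 1.5 times. Without a filter on low values, counts in knockdown and editing comparisons were 0 for decidua (from 1), 0 for trophectoderm (from 2) and 1 for trophoblast (from 2), and 9 steroidogenic genes (from 3) passed between stages. With a minimum mean of 5 FPKM, 0 cumulus, 2 decidua, 1 other Prl and 4 trophoblast genes passed between stages (from 2, 4, 2 and 9), and quantile normalization left 1 trophectoderm gene in knockdowns. Leaving out a library gave 0 to 2 trophectoderm, 1 to 2 trophoblast, 0 to 1 decidua and 0 to 1 prolactin receptor genes in knockdowns. By rank correlation 1, 1 and 2 of the 5 most alike genes were shared for group means, single embryos and pools. Of 831 settings for single named genes besides leaving out 1 library, 815 kept their call, 13 lost it and 3 gained it, and 18 values changed sign, all of them without a call. Of 291 settings that leave out 1 library, 270 kept the call and 21 lost it.

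Replicate numbers were not taken as pairing, since the labels name no shared batch. In the 4KD experiment, deviations of same-numbered pools correlated at 0.346 within 4C and 0.336 within 8C. Between 4C and 8C pools they correlated at -0.297 to -0.271. In 3KD they correlated at 0.278 to 0.513, positive in all 10 pairs of groups. The values were -0.0403 to 0.141 in the single knockdowns and 0.00429 at 2C. A batch shared by replicate number is not modelled in the main fit. With the replicate block, 4 trophectoderm genes passed in knockdowns (from 2), Nr5a2 passed in the mix sparing Rarg (-2.77) and Nr2c2 no longer passed in its own knockdown (-2.67). Depth in reads cannot be read from FPKM, so values under 1 FPKM are uncertain.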
